A study of Mus musculus with 21 samples.

Results

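The keratin gene family was described in keratinocytes sorted from mouse skin with and without prolonged expression of human p16. Its members were all rows of the expression table whose gene name is Krt followed by a number and at most 1 letter, which gave 51 of 22050 entries. The study profiled GFP+ keratinocytes from the dorsal skin of mice on a mixed FVB, C57Bl and 129sv background. Control mice were K5-rtTA/tet-GFP and p16 mice were K5-rtTA/tet-GFP/tet-p16, so that the rtTA transactivator and the GFP reporter were carried by both groups and the tet-p16 allele by the p16 group. All mice received doxycycline for 6 months, starting at 3 weeks of age. The keratin 5 promoter, the promoter of a member of the family, drove the transactivator, and the sort therefore kept cells in which this promoter was or had been active. Cells stained for CD140a, CD45 or CD31 were gated out, and each sample held about 80000 cells pooled from 3 mice. There were 4 samples per group. The labels list 13 samples of a later profiling round, which were not analysed here.

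Keratins build the intermediate filaments of epithelial cells. Each filament is assembled from pairs of a type I and a type II keratin, and the pair in use changes with the layer and the compartment: Krt5 and Krt14 in the basal layer, Krt1 and Krt10 once a cell of the interfollicular epidermis leaves it, Krt6 and Krt16 after injury and in the outer follicle, and separate sets in the inner root sheath and the hair shaft. Keratin transcripts are therefore widely used in skin as markers of where a cell sits.

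In the GENCODE M21 annotation of GRCm38, 27 of the members lay on chromosome 11 and 24 on chromosome 15. By type, 28 were type I and 23 type II. The type I keratins filled the chromosome 11 cluster, except that Krt18 lay at the end of the type II cluster on chromosome 15, beside its partner Krt8.

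To show what the starts of the genes look like, the 100 bases before the transcription start are given for Krt2 and Krt24, which were higher in p16 samples, for Krt75, which was lower, and for Krt10, which did not pass the test. They come from RefSeq on GRCm38.p6, are read 5′ to 3′ on the minus strand, on which all 4 genes lie, and capitals mark each match to TATANA on either strand, the core of a TATA box with 1 base left free.
Krt2, chr15:101818170-101818269: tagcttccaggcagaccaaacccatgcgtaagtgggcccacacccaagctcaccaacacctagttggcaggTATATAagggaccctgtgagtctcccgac
Krt24, chr11:99285263-99285362: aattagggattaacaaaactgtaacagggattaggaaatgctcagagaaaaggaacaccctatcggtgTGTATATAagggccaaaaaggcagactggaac
Krt10, chr11:99389365-99389464: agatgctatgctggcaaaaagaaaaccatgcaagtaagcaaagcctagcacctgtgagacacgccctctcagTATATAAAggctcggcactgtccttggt
Krt75, chr15:101573905-101574004: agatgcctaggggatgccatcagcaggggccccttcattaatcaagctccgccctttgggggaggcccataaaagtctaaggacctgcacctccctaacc

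RefSeq promoters were matched for 35 of the 51 keratins. TATAAA was found in this window, on either strand, in 15 of them (42.9%), against 5.56% of 32851 promoters in the table. The looser TATANA, which holds every TATAAA match and was chosen after the sequences had been seen, was found in 20 (57.1%) against 9.48%. It was present before Krt2, Krt24 and Krt10 and absent before Krt75. The AP-2 motif GCCNNNGGC was found in 3 keratin promoters (6.78% of all promoters), the Tcf/Lef core TCAAAG in 2 (4.97%) and the AP-1 motif TGANTCA in 0 (2.73%). Krt4, Krt6a, Krt15 and Krt35 had no entry in the promoter table.

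The study's methods describe 3′-end libraries, in which a transcript is counted from its end whatever its length, although the labels name another protocol for 2 of the 8 libraries. Total counts on genes ran from 1760953 to 3414362 in control libraries and from 2884544 to 3202975 in p16 libraries, and keratins took between 1.66% and 2.59% of them. In the deposited table each count is divided by the size factor of its library (normalized values below). The values were recovered as whole counts, and 1 count was worth between 0.74 and 1.53 normalized units. All 10 keratinocyte markers of the list used to check the cell type were expressed and none was called, with summed values of 33607 to 50236 in control and 34136 to 38312 in p16 samples. The list holds Krt5 and Krt14, members of the family itself, which made up most of the mean sum. Of the 10, only Epcam had groups that did not overlap, with means of 1057 ± 103 in control and 817 ± 136 in p16 samples (limma adjusted p = 0.123). Of 6 endothelial markers, Cdh5, Kdr and Emcn were at 0 in all 8 libraries, while Pecam1 (1.3 to 6.4), Tie1 (2.5 to 5.1) and Egfl7 (1.6 to 11.7) were detected in each and 0 were called. Of 9 fibroblast markers only Lum was at 0 throughout, and the list summed to 677 to 900 in control and 782 to 2957 in p16 samples. Most of this sum was Thy1, with 582.1 to 791.8 in control and 674.8 to 2908.2 in p16 samples. Ptprc, the gene of CD45, had 3 counts or fewer in each library.

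Some libraries stood apart. For replicate 3 of both groups the labels name an Illumina RNA sequencing protocol, and for the others CEL-Seq. The human p16 transcript, entered as hsCDKN2A, had values of 0.7, 1.3, 2.5 and 1.5 in the control libraries and of 1.6, 10.1, 16 and 7.4 in the p16 libraries. The library labelled p16 replicate 1 thus lay within the control range, although all these values stand for few counts. For Cd34 and Lhx2, described below, it lay with the other p16 libraries, at 8.8 (control 121.9 to 238.9) and 103.1 (control 391.4 to 658.7). Both genes were picked for their difference between the groups. Whether the label is right was not tested. EGFP, the reporter of the sort, ran from 4152.0 to 5912.6 in control and from 3161.8 to 3978.8 in p16 samples, with all p16 samples below all control samples, and its part in the keratin differences was not tested. Called keratins are therefore also given without the library labelled p16 replicate 1 and without replicate 3 of both groups. Nothing in the labels ties a sample to 1 of the 3 independent experiments named in the methods. The p-values therefore measure the spread between these samples. In it, differences between pools of mice, between experiments and, for replicate 3, between protocols cannot be told apart.

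The counts of the most abundant keratins did not follow library depth. Krt5 had the highest count of any gene in all 8 libraries, between 11761 and 12279, a 1.04-fold range where the totals spanned 1.94-fold. Control library 4 held 0.516 times the total counts of control library 1, and genes with 100 to 1000 counts in library 1 had 0.479 times as many. For Krt5 this ratio was 0.964, for Krt14 0.897, for Krt17 0.822, for Krt79 0.751 and for Krt15 0.709. Krt10 (0.434) and Krt1 (0.552) scaled with depth. Normalized Krt5 and Krt14 were accordingly highest in control libraries 2 and 4, the shallowest of the 8. As an alternative chosen after this was seen, counts were adjusted for an assumed ceiling of 12288 counts per gene, the number of distinct molecular tags of 6 bases in 3 sets, and the adjusted values are given beside the abundant keratins. Use of such tags is not given in the sources used here, and with them a count would stand for a tagged molecule and not for a read. Whether such a ceiling exists in these libraries was not tested.

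**Figure D1:**
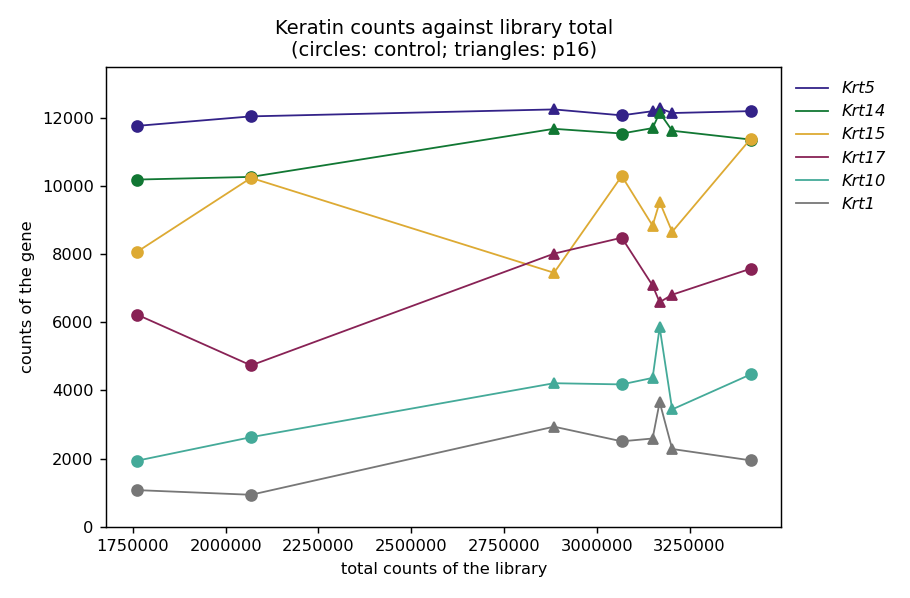
Counts of 6 keratins (vertical axis) against the total counts of the library (horizontal axis), for control (circles) and p16 libraries (triangles), with lines joining the libraries of 1 gene in order of depth. Krt5 stayed between 11761 and 12279 counts at every depth, whereas Krt10 and Krt1 were lowest in the shallowest libraries.

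Of the 51 keratins, 6 were at 0 in every library and 21 (these included) never had more than 3 counts. The 31 whose normalized value averaged 1 or more were tested, and 4 of them, Krt19, Krt28, Krt35 and Krt84, reached that mean in 1 group alone. With limma on log2(normalized value + 1) and an adjusted p under 0.05 over all genes, 3 keratins rose and 4 fell in p16 samples, 22.6% of those tested. Among all 12782 genes tested the share was 3.86% (1.24% higher and 2.61% lower). Genes that reached the mean in 1 group alone had to differ to be tested, and without them 3 keratins were called higher and 3 lower of 27, with Krt35 left out, against 3.82% of all genes. At an unadjusted p under 0.05, 4 keratins were higher and 8 lower, against 7.02% and 8.93% of all genes. On the whole counts edgeR called 2 higher and 3 lower of the 19 keratins it tested (4.29% of all genes). DESeq2 called 4 higher and 5 lower of the 45 keratins with any count (3.53% of all genes with any count). Genes such as Cd3e had no adjusted p in DESeq2, so its shares are not of genes tested. Limma called 3 higher and 2 lower without the library labelled p16 replicate 1 (2.04% of all genes), and 2 higher and 2 lower without replicate 3 of both groups (1.75%).

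The 7 called keratins were those whose samples did not overlap between the groups, which was so for 9.83% of all genes tested (4.19% with p16 samples above and 5.63% with p16 samples below). For each of them the exact two-sided permutation test gave p = 0.0286, the smallest that 4 samples against 4 allow. The median log2 fold change of the tested keratins was -0.25, with 9 positive and 22 negative, and that of all genes -0.00. The negative ones include Krt19, Krt28, Krt35 and Krt84, which were tested through their control values alone. The sign of 10 keratins, none of them called, changed under at least 1 alternative. The summed normalized value of the family was 43322 to 69671 in control and 41513 to 48686 in p16 samples, and the groups overlapped. The log2 ratio of summed type I to summed type II keratins was 0.52 ± 0.11 in control and 0.52 ± 0.07 in p16 samples (SD, n = 4). The family sum and this ratio rest mostly on the abundant keratins whose counts did not follow depth. They therefore cannot show whether the balance of the types was kept.

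**Figure D2:**
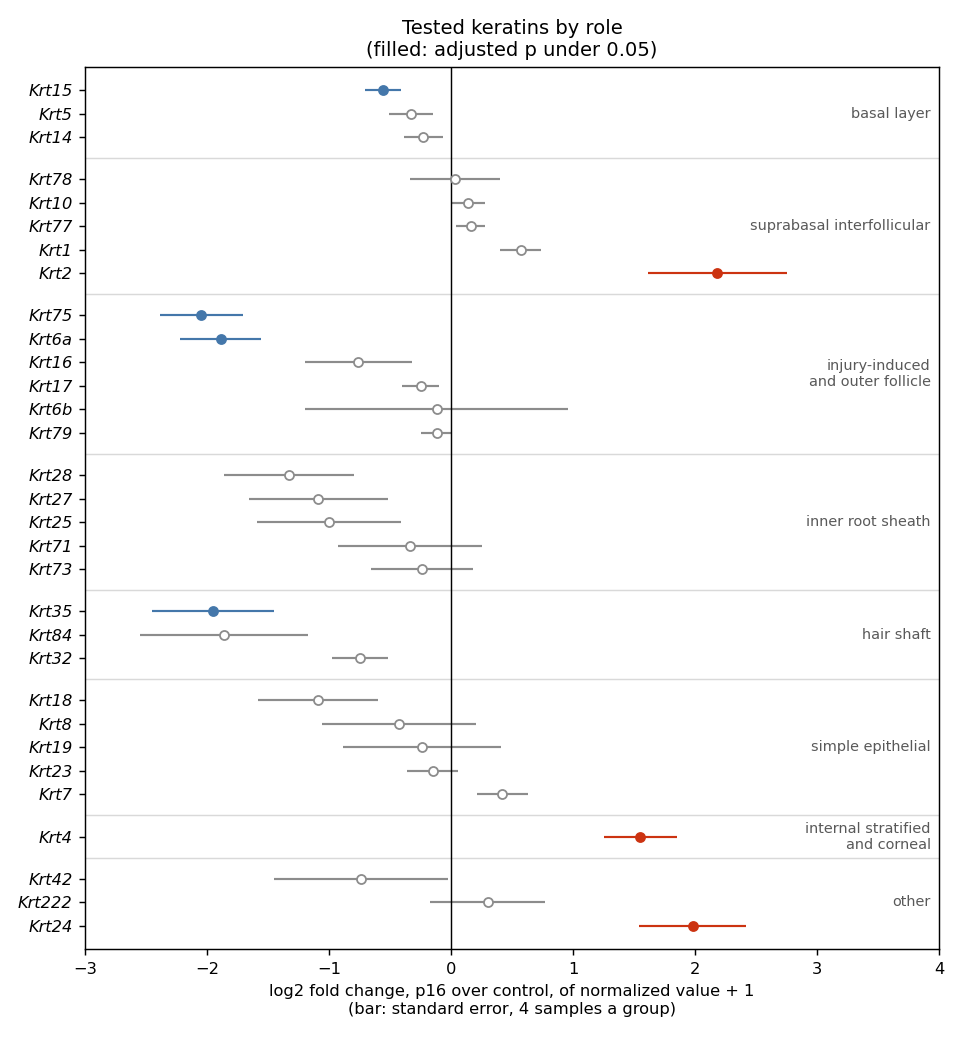
Log2 fold change (p16 over control) of the normalized value plus 1 for the 31 tested keratins, grouped by role, with standard errors as bars and called keratins filled (red, higher in p16; blue, lower). The filled points are Krt2, Krt4 and Krt24 to the right of 0 and Krt6a, Krt15, Krt35 and Krt75 to the left, and the tested members of the basal, outer follicle, inner root sheath and hair shaft groups lie to the left, although Krt5, Krt14, Krt6b, Krt71, Krt73 and Krt79 changed side under at least 1 alternative. Of these members Krt28, Krt35 and Krt84 reached the filter mean in control samples alone, so they had to lie to the left to be tested.

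The basal keratins were led by Krt15, which fell, while Krt5 and Krt14 did not pass the test. Krt5 and Krt14 form the filament pair of basal keratinocytes, and Krt15 is a basal type I keratin that is also abundant in the hair-follicle bulge. Krt15 had normalized values of 8442.8, 13136.4, 8594.2 and 12321.7 in control and of 7064.1, 6756.7, 6607.4 and 7834.0 in p16 samples. All p16 samples lay below all control samples, and the control samples spread over a wider range. The mean was 10624 ± 2454 in control and 7066 ± 546 in p16 samples (SD, n = 4), 1.50-fold lower (log2 fold change -0.56, SE 0.15, limma adjusted p = 0.0463).

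The call for Krt15 was lost without control replicate 2 or 4, p16 replicate 2 or 3, or the library labelled p16 replicate 1 (adjusted p 0.0972 to 0.128), and without replicate 3 of both groups (adjusted p = 0.0930). Its direction was kept in all of these. With the counts adjusted for the assumed ceiling, which raises the values of the abundant genes, Krt15 was 1.84-fold lower (log2 fold change -0.87, limma adjusted p = 0.00612). The highest Krt15 count was 92.6% of that ceiling, so this size depends on the ceiling assumed. Within a library, the log2 ratio of Krt15 to Krt14 was 0.00, -0.00, -0.17 and -0.34 in control and -0.40, -0.43, -0.65 and -0.35 in p16 samples. The ratios did not overlap, although control replicate 4 came within 0.01 of a p16 sample.

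Krt14 had values of 8427.2, 13172.3, 9635.7 and 15562.2 in control and of 9351.6, 9071.6, 10351.8 and 9986.5 in p16 samples (log2 fold change -0.23, SE 0.16, adjusted p = 0.553). Krt5 ran from 9045.9 to 17968.5 in control and from 9476.9 to 10856.3 in p16 samples (-0.33, SE 0.18, adjusted p = 0.412). In both genes the p16 samples lay close to the deeper control libraries, replicates 1 and 3, and below the shallower replicates 2 and 4. With the ceiling adjustment the signs turned, to 0.24 for Krt14 (adjusted p = 0.559) and 0.11 for Krt5 (adjusted p = 0.865), so no direction is given for this pair. The highest Krt5 and Krt14 counts were 99.9% and 98.8% of the assumed ceiling. So near it a few counts move the adjusted value far, as for Krt5 in p16 replicate 4, from 10095.9 to 72937.

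Of the 5 suprabasal keratins of the interfollicular epidermis that were tested, 1, Krt2, rose, and the others had positive fold changes that missed the threshold, of which those of Krt10 and Krt78 changed sign with the library left out. Krt2 is a type II keratin of the upper spinous and granular layers. Its normalized values were 0.7, 5.1, 1.7 and 4.6 in control and 5.6, 14.8, 11.5 and 49.3 in p16 samples. The lowest p16 value, in the library labelled p16 replicate 1, was just above the highest control value, and p16 replicate 4 was far above the others. The means were 3.02 ± 2.16 and 20.3 ± 19.7 (SD, n = 4), 6.71-fold higher (log2 fold change 2.18, SE 0.57, limma adjusted p = 0.0476).

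Krt2 rested on few counts in the control libraries, and its call was lost without control replicate 1, 3 or 4 or p16 replicate 2, 3 or 4 (adjusted p 0.0571 to 0.153). Leaving out the library labelled p16 replicate 1 gave 0.0286, and leaving out replicate 3 of both groups gave 0.175. Without p16 replicate 4 the means were 3.02 and 10.6, 3.52-fold higher. The call was also lost with a pseudocount of 0.1 (adjusted p = 0.0658), with no filter on low values (adjusted p = 0.0597) and with a filter at 10 (adjusted p = 0.0682). DESeq2 on the whole counts gave an adjusted p of 0.00474.

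Krt1 and Krt10 form the pair that replaces Krt5 and Krt14 above the basal layer. Krt1 had values of 1445.8, 1205.1, 2093.8 and 1643.9 in control and of 2070.9, 1781.7, 2604.1 and 3008.5 in p16 samples. The groups overlapped through control replicate 3, which was above p16 replicates 1 and 2. The mean was 1597 ± 377 in control and 2366 ± 547 in p16 samples (log2 fold change 0.57, SE 0.17, limma adjusted p = 0.0952). It passed in 4 of 18 alternatives. These were limma without control replicate 3 (adjusted p = 0.0408), without p16 replicate 2 (adjusted p = 0.0391) or with the replicate number as a block (adjusted p = 0.00619), and DESeq2 (adjusted p = 0.0418).

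Krt10 had values of 3316.0, 3373.9, 3488.6 and 2960.9 in control and of 3492.5, 2688.2, 3734.6 and 4811.6 in p16 samples. The groups overlapped, and both the lowest and the highest value belonged to p16 samples (log2 fold change 0.14, SE 0.14, adjusted p = 0.721). The log2 ratio of Krt1 to its partner was -1.07 ± 0.34 in control and -0.64 ± 0.10 in p16 samples (SD, n = 4), with overlap. Against the basal genes, the log2 ratio of Krt10 to Krt14 was -1.79 ± 0.48 and -1.42 ± 0.29, and that of Krt1 to Krt5 -3.01 ± 0.67 and -2.11 ± 0.28. Both ratios overlapped between the groups, and in control libraries they were lowest in replicates 2 and 4, the libraries in which normalized Krt5 and Krt14 were highest.

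Krt77, a type II keratin that in mouse skin accompanies Krt1, had means of 770 ± 73.4 in control and 869 ± 153 in p16 samples (log2 fold change 0.16, adjusted p = 0.591). Krt78 was at 4.78 ± 1.94 and 4.70 ± 0.942 (log2 fold change 0.03, adjusted p = 0.984), and its sign changed with the library left out. Krt9, the keratin of palm and sole skin, and Krt76 had no more than 3 counts in any library. The summed suprabasal keratins were 5302 to 6445 in control and 5508 to 8669 in p16 samples, with the highest value in p16 replicate 4.

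Krt4, a type II keratin best known from internal stratified epithelia such as the oesophagus, rose in p16 samples. Its normalized values were 11.1, 6.4, 10.9 and 6.1 in control and 24.0, 37.5, 16.8 and 31.2 in p16 samples. The p16 samples all exceeded the control samples, with means of 8.62 ± 2.75 and 27.4 ± 8.95 (SD, n = 4). This was a 3.17-fold increase (log2 fold change 1.55, SE 0.30, limma adjusted p = 0.0102). It was called with each library left out, with adjusted p up to 0.0349, and without replicate 3 of both groups (adjusted p = 0.0142). Krt13, the type I partner of Krt4 in those epithelia, had 3 counts or fewer in all 8 libraries, as did Krt12 of the cornea.

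Krt24, a type I keratin at the low-coordinate end of the chromosome 11 cluster, rose as well. Its values were 12.6, 5.1, 13.4 and 9.2 in control and 31.2, 33.6, 117.0 and 21.4 in p16 samples. All p16 samples were above all control samples, and p16 replicate 3 was 4.07 times the mean of the other p16 samples. The means were 10.1 ± 3.78 and 50.8 ± 44.4 (SD, n = 4), 5.04-fold higher (log2 fold change 1.98, SE 0.44, limma adjusted p = 0.0201). Without p16 replicate 3 alone the p16 mean was 28.7, 2.85-fold higher than in control samples. Without replicate 3 of both groups the log2 fold change was 1.63 (adjusted p = 0.0419). It was 2.10 when the library labelled p16 replicate 1 was dropped (adjusted p = 0.0423). Without control replicate 2 it was 1.72 and missed the threshold (adjusted p = 0.0569).

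**Figure D3:**
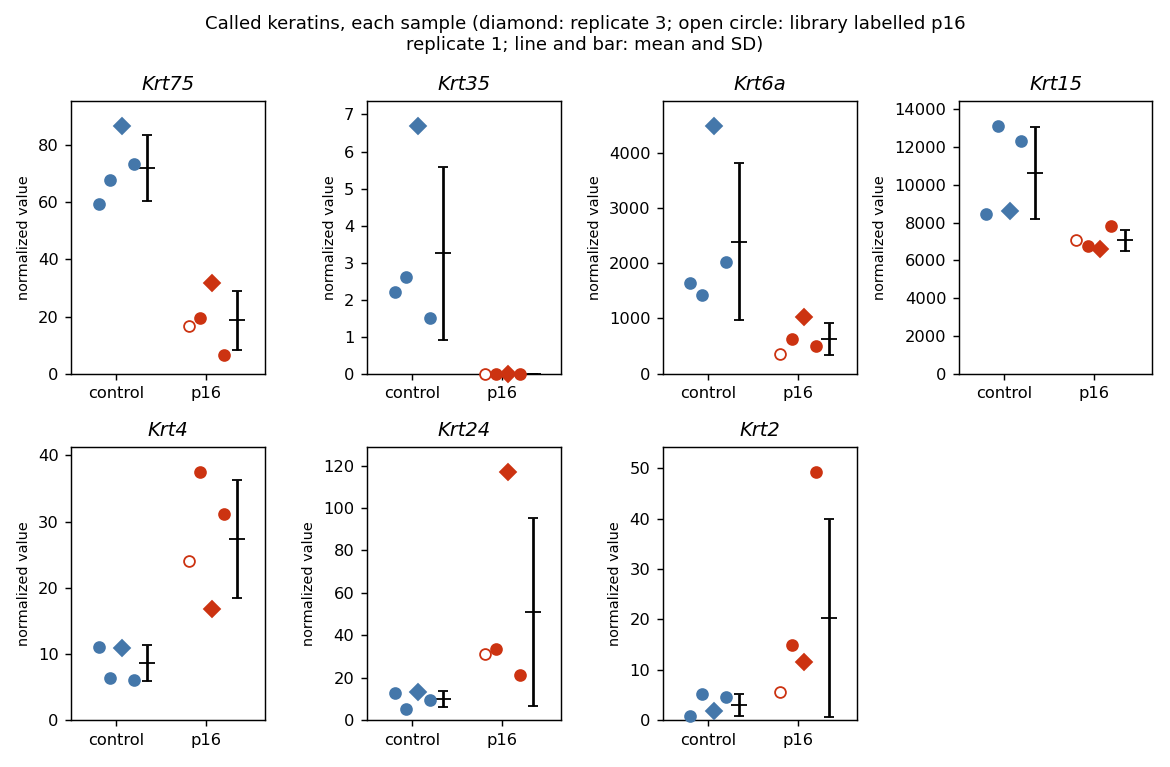
Normalized values of the 7 called keratins in each control (blue) and p16 (red) sample, with 1 panel per gene and its own axis starting at 0, diamonds for replicate 3, an open circle for the library labelled p16 replicate 1, and the mean and SD of 4 samples as line and bar. In no panel do the groups overlap, and the spread within a group differs widely, from Krt15 in p16 samples (6607.4 to 7834.0) to Krt24 (21.4 to 117.0).

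The injury-induced and outer follicle keratins held the most significant decreases. Krt6a, a type II keratin of the companion layer and inner bulge that is also induced by wounding, had values of 1634.3, 1427.1, 4492.5 and 2015.2 in control and of 351.0, 633.2, 1026.8 and 492.5 in p16 samples. The highest p16 value was below the lowest control value. The means were 2392 ± 1421 and 626 ± 291 (SD, n = 4), 3.82-fold lower (log2 fold change -1.89, SE 0.33, limma adjusted p = 0.00477). Replicate 3 was the highest sample of each group, at 2.65 and 2.09 times the mean of the others. Without replicate 3 of both groups the log2 fold change was -1.81 (adjusted p = 0.000756). It was -1.65 when the library labelled p16 replicate 1 was dropped (adjusted p = 0.0191).

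Krt75, a type II keratin of the companion layer and the hair medulla, had values of 59.3, 68.0, 86.9 and 73.3 in control and of 16.8, 19.5, 31.9 and 6.6 in p16 samples. The groups were far apart, with means of 71.9 ± 11.6 and 18.7 ± 10.4 (SD, n = 4). This was a 3.84-fold decrease (log2 fold change -2.05, SE 0.34, limma adjusted p = 0.00326), the smallest adjusted p among the keratins. It was -2.27 without replicate 3 of both groups (adjusted p = 0.00575) and -2.07 when the library labelled p16 replicate 1 was dropped (adjusted p = 0.0122).

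Krt6b and Krt16 were not called. Krt16, the type I partner of the Krt6 proteins, had values of 106.8, 101.4, 570.4 and 195.6 in control and of 79.2, 80.4, 203.9 and 112.6 in p16 samples (log2 fold change -0.76, SE 0.44, limma adjusted p = 0.445). The groups overlapped, and in each group replicate 3 was the highest. Krt16 passed in 1 of 18 alternatives, limma with the replicate number as a block (adjusted p = 0.0191). Krt6b, a close paralog of Krt6a, had values of 4.5, 1.3, 181.2 and 39.7 in control and of 6.4, 10.9, 82.5 and 8.2 in p16 samples. Replicate 3 was 11.9 and 9.71 times the mean of the other samples of its group, the log2 fold change was -0.12 (SE 1.08, adjusted p = 0.979), and its sign changed with the library left out. The last 300 bases of the annotated Krt6a and Krt6b transcripts shared no stretch of 50 bases with each other or with another gene. Exact reads of that length from their ends can therefore be told apart. This does not cover reads aligned with mismatches or reads from elsewhere in the transcripts. Whether reads were assigned to the wrong gene of the pair in replicate 3, labelled with another protocol, was not tested.

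The log2 ratio of Krt6a to Krt16 within a library was 3.94, 3.81, 2.98 and 3.36 in control and 2.15, 2.98, 2.33 and 2.13 in p16 samples. The values met at 2.98, where control replicate 3 was above p16 replicate 2 by less than the rounding, and the means were 3.52 ± 0.44 and 2.40 ± 0.40 (SD, n = 4). The summed value of Krt6a, Krt6b, Krt16 and Krt75 was 1598 to 5331 in control and 453 to 1345 in p16 samples, without overlap, and was mostly Krt6a. With Krt17 and Krt79 included, the sum of all 6 keratins of the group was 11585 to 18271 in control and 10324 to 13530 in p16 samples, with overlap.

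Krt17, which accompanies these keratins along the outer follicle, was at 7071 ± 1738 in control and 5874 ± 833 in p16 samples (SD, n = 4; log2 fold change -0.25, adjusted p = 0.478). Krt79, a type II keratin of the upper follicle and sebaceous duct, was at 4966 ± 1024 and 4506 ± 389 (log2 fold change -0.12, adjusted p = 0.724). Both were highest in control replicate 4, a library in which the abundant keratins stood high. With the ceiling adjustment the log2 fold changes were -0.22 and -0.06.

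**Figure D4:**
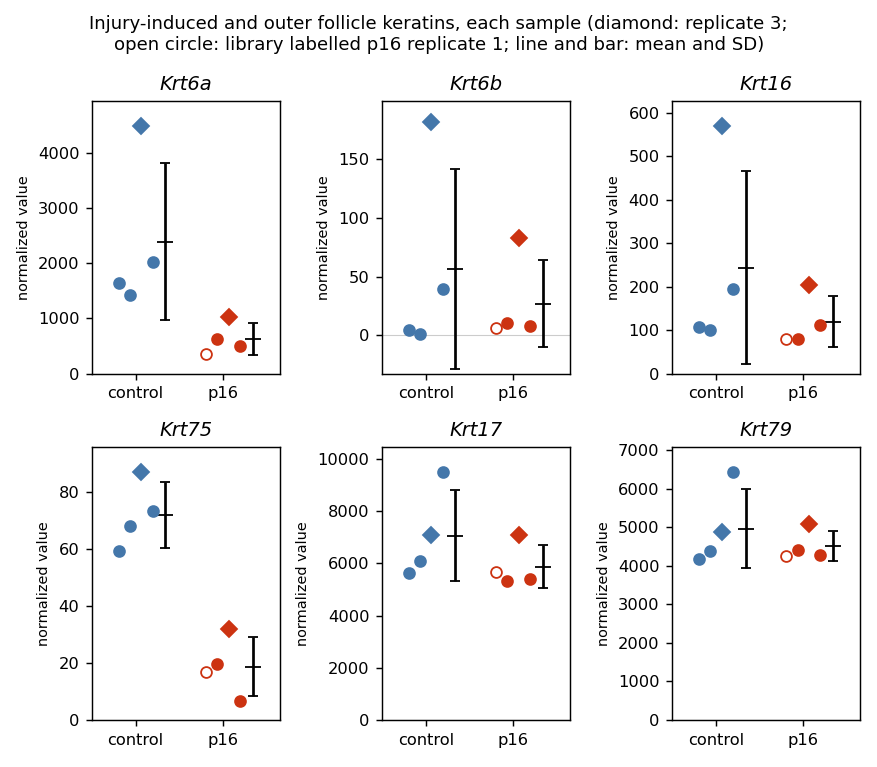
Normalized values of the 6 injury-induced and outer follicle keratins in each control (blue) and p16 (red) sample, with diamonds for replicate 3, an open circle for the library labelled p16 replicate 1, and the mean and SD of 4 samples as line and bar. Replicate 3 is the highest sample of both groups for Krt6a, Krt6b, Krt16 and Krt75, and for Krt6a and Krt75 the groups stay apart.

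Markers of the hair follicle also differed between the groups. Of 10 bulge markers, 8 were called lower and 0 higher, where 2.61% of all genes tested were lower, and their summed value was 2916 to 3743 in control and 1232 to 2497 in p16 samples. The marker lists were chosen with earlier results of these data known, so such shares are not independent of the outcome. Cd34, the surface marker of bulge cells, fell from 169 ± 51.4 to 11.8 ± 4.08 (SD, n = 4; log2 fold change -3.74, SE 0.25, limma adjusted p = 3.27e-06). No bulge marker was at 0 in a whole group, and Lgr5 did not pass (44.9 to 93.2 and 24.7 to 63.0, adjusted p = 0.241). Postn, the other bulge marker that was not called, had the opposite sign, with 287 ± 90.9 in control and 501 ± 207 in p16 samples (SD, n = 4; log2 fold change 0.73, limma adjusted p = 0.272). Of 6 upper follicle markers, a list that holds Krt79, 3 were lower and 1, Lgr6, was higher, with sums of 10708 to 15657 and 8472 to 9802. Of 7 sebaceous gland markers tested, 5 were lower, with sums of 1160 to 1549 and 504 to 728. In these pools fewer follicle cells and less of the transcript per cell cannot be told apart, and the part of such shifts in the keratin differences was not tested.

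The inner root sheath keratins were low and none of the 5 tested was called, although all 5 fold changes were negative, with those of Krt71 and Krt73 turning when a library was left out. Krt71, a type II keratin of the sheath, had values of 11.9, 2.6, 35.1 and 38.2 in control and of 15.2, 14.1, 11.5 and 7.4 in p16 samples. The control samples spread widely on either side of the p16 samples (log2 fold change -0.34, SE 0.59, adjusted p = 0.855). Krt73 ran from 7.7 to 18.3 and from 4.1 to 19.5 (adjusted p = 0.853), and Krt25, a type I partner, had means of 9.15 ± 7.42 and 3.30 ± 1.88 (adjusted p = 0.451). Krt27 and Krt28 had log2 fold changes of -1.09 and -1.33 (adjusted p 0.376 and 0.223). Krt28 reached the filter mean in control samples alone, so it had to be lower to be tested. Krt26, Krt72 and Krt74 never exceeded 3 counts. The summed inner root sheath keratins were 18.0 to 87.0 in control and 13.9 to 43.7 in p16 samples.

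Hair shaft keratins, which harden the growing hair, were mostly silent in both groups, as 11 of 14 had no more than 3 counts in any library and 5 were at 0 throughout. Of the 3 tested, Krt35 was called lower, where 2.61% of all genes tested were. Krt35 and Krt84 reached the filter mean in control samples alone, so both had to be lower to be tested. Krt35, a type I keratin of the early hair cortex and cuticle, had values of 2.2, 2.6, 6.7 and 1.5 in control samples and 0 in all 4 p16 samples. Its control counts were 3, 2, 8 and 1, so only control replicate 3, labelled with another protocol, exceeded 3 counts. Against a floor of 3 counts per library in the p16 samples, the Krt35 control mean of 3.25 ± 2.34 (SD, n = 4) was at least 1.32-fold higher. Its limma adjusted p was 0.0432, and it was 0.0713 to 0.107 when control replicate 1 or 2, p16 replicate 2, 3 or 4 or the library labelled p16 replicate 1 was left out, and 0.250 without replicate 3 of both groups. Without control replicate 3 it fell below the filter and was not tested.

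Krt32, a type I keratin of the hair cuticle and the most counted of the group, had values of 103.1, 106.5, 76.0 and 58.1 in control and of 50.4, 40.6, 39.0 and 73.2 in p16 samples. Control replicate 4 and p16 replicate 4 crossed, and the difference missed the threshold (log2 fold change -0.75, SE 0.23, limma adjusted p = 0.0929). It passed without control replicate 4 (adjusted p = 0.0423) or without p16 replicate 4 (adjusted p = 0.0163). Krt84 had values of 2.2, 11.6, 6.7 and 0.0 in control samples and reached 0.8 in 1 p16 sample (adjusted p = 0.183). Its adjusted p was 0.0296 without control replicate 4.

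The keratin-associated proteins, which cross-link hair keratins, had 56 entries, of which 29 were at 0 everywhere and 1 was tested and not called. Their summed value was 6.50 to 32.9 in control and 3.10 to 6.40 in p16 samples, so that the groups were apart by less than 1 count. The highest sum was that of control replicate 3, which also held the highest control value of Krt35.

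Simple epithelial keratins, typical of single-layered epithelia, were low and none of the 5 tested was called. Krt7 had values of 36.3, 33.4, 29.2 and 27.5 in control and of 50.4, 32.8, 56.7 and 34.5 in p16 samples (log2 fold change 0.42, SE 0.21, adjusted p = 0.351). Krt23 ran from 25.7 to 46.8 and from 26.6 to 36.0 (adjusted p = 0.817). Krt8 and Krt18, the simple epithelial pair, stayed at or below 5.1 in all samples (adjusted p 0.819 and 0.285), Krt19 reached 6.1 in 1 control sample (adjusted p = 0.912), and Krt20 never exceeded 3 counts. Krt8, Krt18 and Krt20 also mark Merkel cells, whose 9 markers summed to 5.10 to 12.6 in control and 6.50 to 14.3 in p16 samples, with 0 of 3 tested called. Of the 9, 4 had no more than 3 counts in any library. Atoh1, Isl1 and Chga, too low to be tested, were at 0 in every control sample and at 0.8 to 3.9 in every p16 sample. Of the others, Sox2, Krt20 and Syp had higher p16 means, and Krt8, Krt18 and Piezo2 higher control means, all at a few counts. Krt42 (6.68 ± 6.23 and 2.28 ± 1.54, adjusted p = 0.689) and Krt222 (1.07 ± 0.386 and 1.68 ± 1.02, adjusted p = 0.833) completed the tested members.

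By position, the called members lay in different stretches of the clusters. On chromosome 15 the keratins in order from the lowest coordinate ran from Krt80 at place 1 to Krt18 at place 24. Krt75 (chr15:101563345-101573904) and Krt6a (chr15:101689910-101694307), which fell, were at places 8 and 10, separated by Krt6b. Krt2 (chr15:101810689-101818169), Krt1, Krt77 and Krt76 followed each other at places 16 to 19, with Krt4 (chr15:101918535-101924735) at place 20. The 4 of these that were tested had positive log2 fold changes of 2.18, 0.57, 0.16 and 1.55, and Krt2 and Krt4 passed the test. On chromosome 11, Krt24 (chr11:99279959-99285262) was at place 2 of 27, and Krt35 (chr11:100092193-100096241) and Krt15 (chr11:100131758-100135928) were at places 18 and 21. All 7 called genes are on the minus strand, as is the whole family except Krt7, Krt18 and Krt86.

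The proteins that anchor, bundle or bind keratin filaments were read from a list of their own. Of 19 listed genes 17 were in the table and 16 were tested, and limma called 0 of them, against 3.86% of all genes. At an unadjusted p under 0.05 there were 3 higher and 2 lower, against 15.9% of all genes in either direction, and DESeq2 called 2 higher. Desmoplakin (Dsp), which ties filaments to desmosomes, had means of 3882 ± 316 and 3373 ± 123 (adjusted p = 0.304), and plectin (Plec), the linker at hemidesmosomes, 1343 ± 109 and 1588 ± 200 (adjusted p = 0.278). The genes nearest the threshold bind keratins in the cornified layers. Flg2 ran from 12.8 to 30.4 and from 28.8 to 101.5 (log2 fold change 1.30, adjusted p = 0.0596) and Hrnr from 2.6 to 12.6 and from 8.9 to 72.6 (1.84, adjusted p = 0.0963), and both were highest in p16 replicate 2.

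Of 23 transcription factors known to act on keratin genes or in the layers that use them, all were tested, and 5 fell and 1 rose, against 2.61% and 1.24% of all genes. This list was also chosen with earlier results of these data known. Lhx2, a bulge factor, had values of 658.7, 391.4, 487.8 and 540.8 in control and of 103.1, 150.7, 159.6 and 66.6 in p16 samples. The groups were well separated (log2 fold change -2.16, SE 0.23, limma adjusted p = 0.000111). Hoxc13, which activates hair keratin genes, had values of 171.4, 80.9, 158.7 and 218.5 in control and of 56.8, 63.2, 55.9 and 41.9 in p16 samples (-1.44, SE 0.24, adjusted p = 0.00371). Both were called under all alternatives run. Nfatc1, a factor of bulge quiescence, fell from 286 ± 24.3 to 200 ± 10.8 (SD, n = 4; -0.51, adjusted p = 0.00948), and missed the threshold without replicate 3 of both groups (-0.53, adjusted p = 0.0610).

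Sox9 of the outer root sheath fell by 0.74 on the log2 scale (adjusted p = 0.0297), and missed the threshold without control replicate 1, 3 or 4 or the library labelled p16 replicate 1 (adjusted p 0.0775 to 0.0896). Cebpb, a factor of differentiation, fell by 0.42 (adjusted p = 0.0339), and missed it without any 1 control sample, p16 replicate 2 or the library labelled p16 replicate 1 (adjusted p 0.0543 to 0.135). Pou2f3, a suprabasal factor, rose by 0.59 (adjusted p = 0.0200), and missed it without control replicate 1 or 4, p16 replicate 3 or the library labelled p16 replicate 1 (adjusted p 0.0573 to 0.0817). Without replicate 3 of both groups Sox9, Cebpb and Pou2f3 missed it as well (adjusted p 0.0586 to 0.0977). Trp63, the master regulator of stratified epithelia, was at 693 ± 48.7 and 738 ± 67.0 (adjusted p = 0.726), and Klf4 at 1935 ± 165 and 2075 ± 156 (adjusted p = 0.682). Lhx2, Sox9 and Nfatc1 are also on the list of bulge markers.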

How the data were processed

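Per the study's methods, the authors made 3′ libraries by an adapted CEL-Seq2 protocol, trimmed reads with Cutadapt and aligned them to GRCm38 with TopHat2. The submitters' processing notes also name HTSeq and DESeq2. Use of molecular identifiers is not given in the sources used here. The deposited signal values are counts divided by a size factor per library. Columns of the authors' group means, test statistic and p-values were not used. Whole counts were recovered for 99.9% of the values above 0, to within 0.05 of the deposited value.

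Groups were taken from the labels. Genes averaging 1 or more were compared on log2(value + 1), which understates changes of low genes, with limma 3.58.1 (eBayes with trend, R 4.3.3) and Benjamini-Hochberg adjustment over all genes. The code was tested on simulated data. Alternatives were edgeR 4.0.16 (459 of 10700 genes called), DESeq2 1.42.0 (543 of 15392 genes with any count), other pseudocounts, filters and scalings, a replicate block and samples left out. Total counts per library limit precision, and the floor of 3 counts covers counting error alone. The text names every called keratin and every tested keratin of the basal, suprabasal, outer follicle and simple epithelial groups, up to 3 others per group by mean value, and called list members. Other names were chosen after their values were seen. Members and lists were chosen with earlier results of these data known.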

Additional observations from a re-analysis of the deposited data

Results flagged for a closer look

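For the named keratins, 58 groups of 4 samples were checked for a sample that stood far from the other 3, and 5 groups had one, where chance gives about 1 in 20. Krt6b in p16 replicate 3 was 82.5, with the other p16 samples at 6.4 to 10.9. Krt24 in p16 replicate 3 was 117.0, with the others at 21.4 to 33.6. Krt19 in control replicate 4 was 6.1, with the others at 0.0 to 0.7, and in p16 replicate 2 it was 0.0, with the others at 0.8 to 0.9. Krt84 in p16 replicate 2 was 0.8, with the others at 0.0. The values of Krt19 and Krt84 stand for a few counts each, as 1 count was worth 0.74 to 1.53. Both large values, of Krt6b and Krt24, belong to a library for which the labels name another protocol, and whether this bears on them was not tested.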

How the results depend on the processing

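Over the alternatives run, Krt4, Krt6a and Krt75 were called in every one, and Krt24 in all but the one without control replicate 2. For single keratins, 433 values kept direction and side of the threshold, 28 lost the call, 9 gained it and 21, all of uncalled keratins, turned sign. The turned log2 fold changes were 0.11 for Krt5 and 0.24 for Krt14 with the assumed ceiling, 0.02 for Krt6b and 0.18 for Krt19 with a pseudocount of 0.1, -0.02 for Krt78 by DESeq2, and 0.22 for Krt6b, 0.07 for Krt23 and 0.06 for Krt71 without replicate 3 of both groups. With each sample left out the log2 fold change ran from -1.09 to 1.01 for Krt6b, -0.00 to 0.28 for Krt10, -1.06 to 0.09 for Krt71, -0.56 to 0.11 for Krt73, -0.17 to 0.19 for Krt78 and -0.20 to 0.01 for Krt79. The 3 keratins called higher came to 2 to 3 with each sample left out. The 4 called lower came to 2 with a pseudocount of 0.1, to 2 without replicate 3 of both groups, to 8 at an unadjusted p under 0.05 and to 2 to 5 with each sample left out. Filament partners called higher (0) came to 2 by DESeq2, to 3 unadjusted and to 0 to 1 with each sample left out, and those called lower (0) to 2 unadjusted. Transcription factors called higher (1) came to 2 with values rescaled to equal totals, by DESeq2 and with the assumed ceiling (chosen after the data were seen), to 3 unadjusted, to 0 without replicate 3 of both groups and to 0 to 2 with each sample left out. Those called lower (5) came to 2 without replicate 3 of both groups and to 3 to 5 with each sample left out. The cause of these changes was not tested. Where a sample was left out, 3 samples stood against 4.

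The labels give both groups the same replicate numbers. Deviations of same-numbered samples from their group means correlated at 0.05, 0.00, 0.05 and 0.08, and replicates 3 and 4 but not 1 and 2 correlated best with their own number. The main fit had no block, although the labels give replicate 3 of both groups a protocol of its own. With the replicate block, 4 keratins were called higher and 4 lower: Krt1 (adjusted p = 0.00619) and Krt16 (adjusted p = 0.0191) were gained, Krt35 was lost (adjusted p = 0.0630), and 608 genes were called in all.

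Library depth limits the low keratins, for which 3 counts correspond to 2.23 to 4.58 normalized units. For the most abundant keratins the counts varied less than depth, so their normalized fold changes depend on the scaling. The GFP+ sort selects on the keratin 5 promoter, and pooled mice hide differences between animals.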

Other observations

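Markers of other cell types also differed in places, and a change in the share of such cells and in their transcripts cannot be told apart in these pools. These lists too were chosen with earlier results of these data known. Of 7 melanocyte markers tested, Dct and Tyrp1 were lower, where 2.61% of all genes tested were, and the 8 markers summed to 138 to 549 in control and 51.7 to 148 in p16 samples, with overlap. Of the fibroblast markers, Dcn was higher in all p16 samples (5.85 ± 3.50 in control and 104 ± 70.6 in p16 samples, SD, n = 4, limma adjusted p = 0.000233) and Vim was lower (58.0 ± 26.7 and 11.8 ± 6.10, adjusted p = 0.00422), while Pdgfra, the gene of CD140a, stayed at or below 3.5 in all samples. Thy1 had values of 674.8, 1466.3, 827.3 and 2908.2 in p16 samples, and p16 replicate 4, its highest sample, also held the highest Krt1, Krt2 and Krt10. The immune markers summed to 121 to 132 in control and 122 to 161 in p16 samples and the endothelial markers to 9.0 to 19.2 and 8.6 to 14.4, and 0 of either list were called. Of the 11 tested markers of the inner root sheath and hair shaft, a list that holds keratins named above, 2 were lower (Hoxc13 and Krt35) and 0 higher. Of these, Krt35 was tested through its control values alone.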
